A study of Caenorhabditis elegans with 4 samples.

Results

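The 30 genes described here were listed as pan-neuronal synaptic and axonal genes of Caenorhabditis elegans, and where each is expressed was not checked. They were taken by name from a written list and located in the Ensembl release 115 annotation of WBcel235. All 30 were found, among 19973 nuclear protein-coding genes. By role, 13 act in vesicle release and at the active zone, 4 in endocytosis, 5 in peptide processing and dense-core vesicles, 6 in the axon cytoskeleton and transport, and 2 are other genes active across the nervous system. Binding of UNC-39 was measured by chromatin immunoprecipitation and sequencing (ChIP-seq) in 4 biological replicates of 1 group. The worms were whole L3 larvae of mixed sex, of strain OP186, which carries the transgene wgIs186 and the allele unc-119(ed3). In this line UNC-39 bears a GFP-FLAG tag at its C terminus. The antibody entry reads unc-39, and which part of the tagged protein it bound like the promoter that drives the transgene, is not stated in the labels. There was no second group, so no comparison between conditions and no test was possible. Neurons were not separated from other cells, so binding in neurons and binding in other cells cannot be told apart, and peak lists offer no tissue marker with which to check the label.

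UNC-39 is a SIX-family homeodomain transcription factor, known in worms for roles in mesoderm and in the migration of cells and axons. Pan-neuronal genes make the parts that every neuron needs. SNARE proteins fuse synaptic vesicles with the membrane, active zone proteins hold the release sites in place, endocytic proteins recover vesicle membrane, convertases mature neuropeptides, and tubulins, ankyrins and kinesins build and supply the axon.

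A peak was given to a gene when its summit lay between 2000 bp upstream of the gene start and the gene end. Peaks were ranked by the authors' signal value within each list, with rank 1 the strongest. The sequences at the summits of the strongest pooled peaks of 5 genes are shown because these are the places where the neuronal genes reached their best ranks, leaving out 1 gene whose summit lies beside the start of a neighbour. Each is 101 bases centred on the summit, on the strand of the gene, 5′ to 3′, read from the RefSeq WBcel235 genome, the same assembly as ce11. Capitals mark ATCGAT in egl-3 and unc-104. In egl-21 and unc-76 they mark CGTCTC and, overlapping it, the hexamer ACGCAG, each on either strand. The snb-1 window held none of the sequences searched. None of the 5 windows overlaps an annotated exon.
egl-3 V:10174710-10174810 (- strand): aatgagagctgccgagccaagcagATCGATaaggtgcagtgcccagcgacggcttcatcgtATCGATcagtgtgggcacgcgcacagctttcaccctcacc
unc-104 II:6992999-6993099 (+ strand): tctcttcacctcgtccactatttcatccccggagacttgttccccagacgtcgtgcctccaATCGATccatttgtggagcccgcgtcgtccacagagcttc
snb-1 V:6656583-6656683 (- strand): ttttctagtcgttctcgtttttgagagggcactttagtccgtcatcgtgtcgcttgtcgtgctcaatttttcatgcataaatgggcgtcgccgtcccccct
egl-21 IV:10481965-10482065 (- strand): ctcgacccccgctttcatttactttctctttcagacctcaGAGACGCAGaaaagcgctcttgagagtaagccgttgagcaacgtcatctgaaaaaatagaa
unc-76 V:15071474-15071574 (+ strand): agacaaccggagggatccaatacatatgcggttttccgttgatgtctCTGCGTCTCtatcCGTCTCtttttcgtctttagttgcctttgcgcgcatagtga

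None of the 30 neuronal genes held a peak of the authors' thresholded list. That list was made by IDR (irreproducible discovery rate), which scores how alike replicates rank peaks. Among all protein-coding genes, 0.436% held one. None of the 30 reached a −log10 q of 1.3 in the pooled list, where 0.245% of all genes did, and the q-values of their strongest pooled peaks ran from 0.162 in egl-3 to 0.959 in tbb-1. These values take the deposited column to be on the −log10 scale usual for the format. The values that follow therefore describe the relaxed lists, which hold peaks and background together. These lists held 12797 peaks in the pool and 30000, 30000, 13225 and 29529 in replicates 1 to 4.

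In the pooled relaxed list, 27 of the 30 neuronal genes (90%) had a peak in the window, against 44.8% of all protein-coding genes. A peak among the 1000 strongest was found in 9 of the 30 (30%), against 5% of all genes. The neuronal genes are long, with a median of 6382 bp against 2027 bp over all genes, and a longer window collects more peaks. When all genes were weighted to the length classes of the 30 (4 classes with equal numbers of genes), their share with a pooled peak was 59.6%, or 17.9 of 30, and that with a peak among the 1000 strongest was 7.69%, or 2.31 of 30. Both counts for the neuronal genes stood above these length-weighted levels. The weighting is coarse, because the longest class runs from 3637 to 102756 bp and holds 21 of the 30, so lengths within it are not matched. The genes were proposed with results of these data known, so no test was made.

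**Figure D1:**
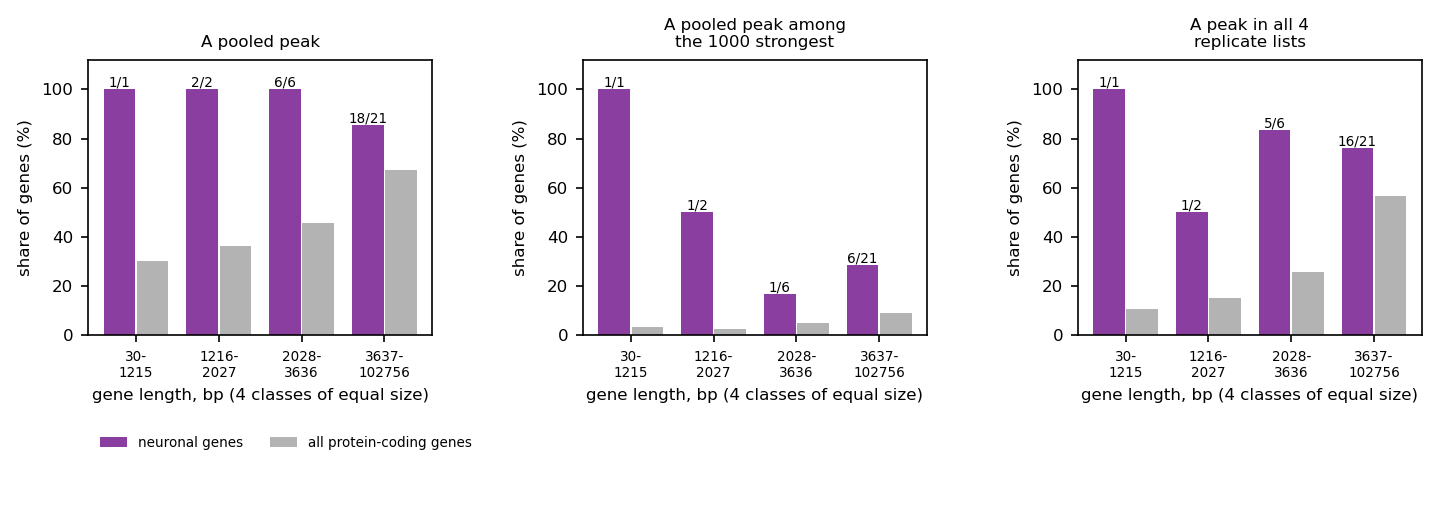
Share of genes (%) with a pooled peak, with a pooled peak among the 1000 strongest and with a peak in all 4 replicate lists, by class of gene length in bp, each class with an equal number of genes; purple bars are the 30 neuronal genes with counts above them, grey bars are all protein-coding genes. Of the 30 neuronal genes 21 fall in the longest class, where 18 had a pooled peak (all genes 67.1%) and 6 had one among the 1000 strongest (all genes 9.2%); the other classes hold 1, 2 and 6 neuronal genes.

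Each replicate list gave a peak to most of the 30 genes. In replicates 1 to 4 the counts were 30, 29, 25 and 29 of the neuronal genes, against 73.3%, 74%, 45.3% and 71.2% of all genes. The length-weighted shares of all genes were 85%, 85.8%, 60.7% and 84.7%. In replicates 1, 2 and 4 these shares leave little room above them. The distance from the background there cannot be set against that in the pool. In replicate 3, whose list is about as long as the pooled one, the neuronal share was 83.3% against 60.7%. In the pool it was 90% against 59.6%. A peak in every one of the 4 lists was found in 23 of the 30 neuronal genes, against 27% of all genes and a length-weighted 46.1%. A peak among the 1000 strongest of a replicate was found in 8, 5, 3 and 8 neuronal genes in replicates 1 to 4. Over all genes the shares were 5.02%, 4.9%, 5.23% and 4.9%. In replicate 3 the 3 genes were 10% of the 30, the lowest share of the 4 replicates. At a −log10 q of at least 1.3 stood 2 of the neuronal genes in replicate 1 (egl-3 and unc-104), 0 in replicate 2 and 20 in replicate 4, against 0.591%, 0% and 30.8% of all genes. In replicate 3 every peak of the list passed that value, so it sorts no gene there.

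**Figure D2:**
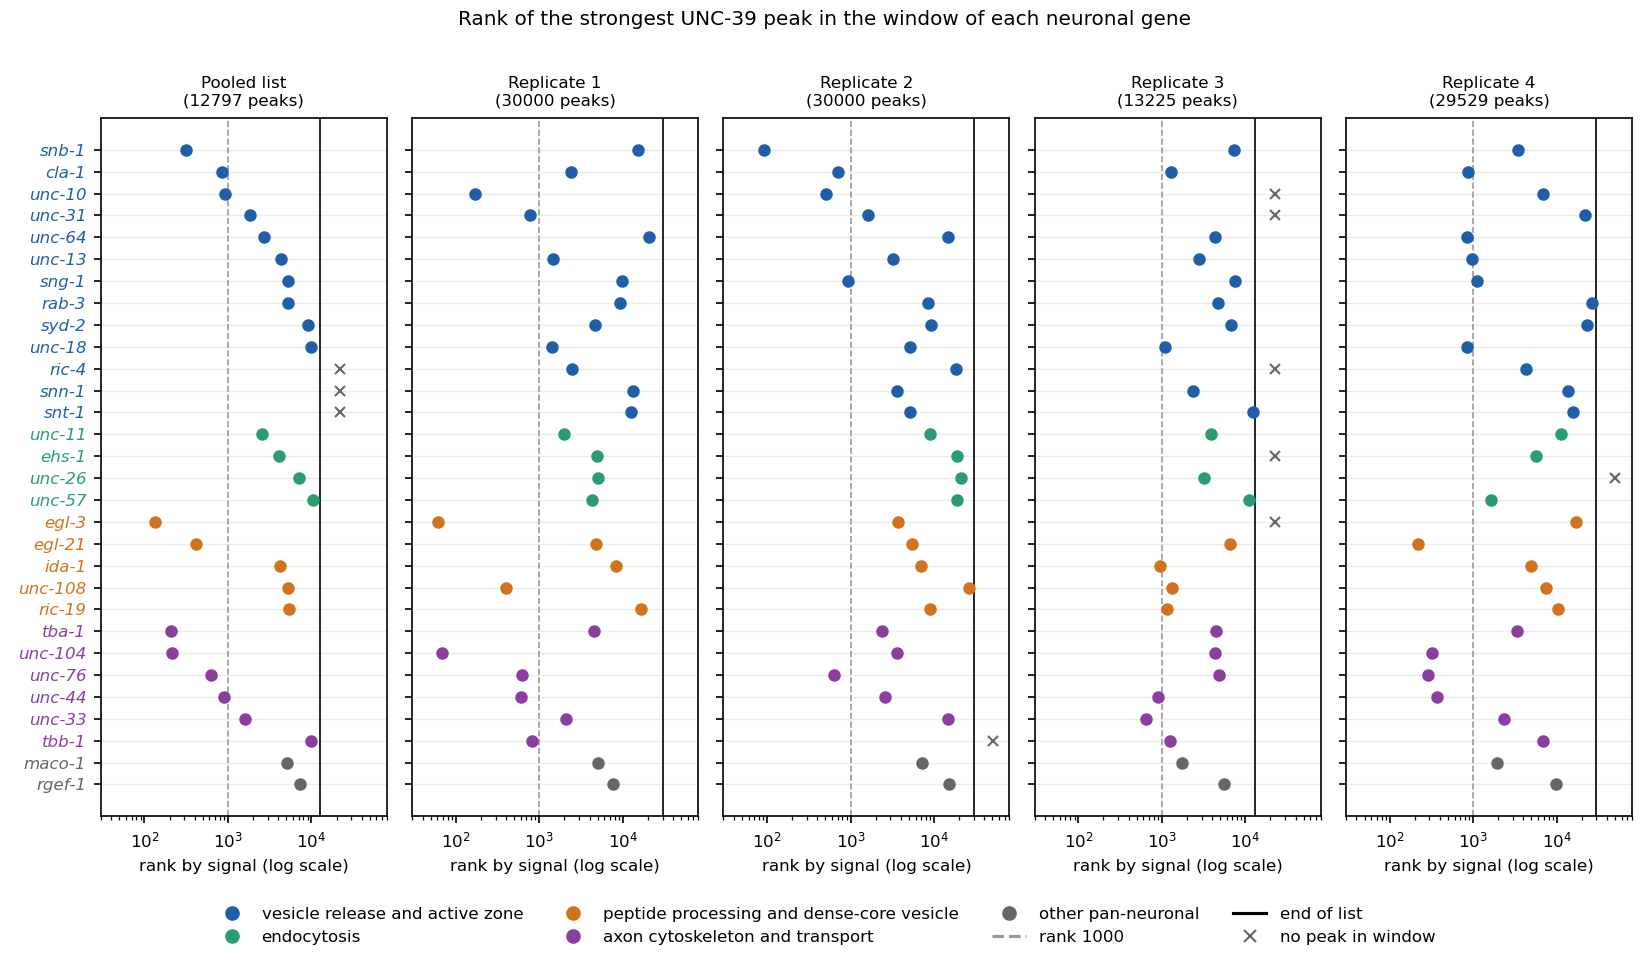
Rank by signal (log axis, 1 is strongest) of the strongest peak in the window of each of the 30 neuronal genes, coloured by role, in the pooled list and in replicates 1 to 4; the dashed line is rank 1000, the solid line the end of the list and a cross a gene with no peak. The lists differ in length (12797, 30000, 30000, 13225 and 29529 peaks), so ranks are read within a panel; 9, 8, 5, 3 and 8 genes lie left of the dashed line.

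The axon cytoskeleton and transport genes had the best median rank of the 5 roles in the pool. All 6 had a pooled peak (44.8% of all genes). A peak among the 1000 strongest was found in 4 (5% of all genes, 9.2% in the longest class). Among these 4 is tba-1, whose summit lay 13 bp from the start of cox-5B. The median best rank was 758, against 4040 over the 27 neuronal genes with a pooled peak and 5242.5 over all genes with one. The 6 genes had a median length of 9055 bp against 2027 bp over all genes. A longer window offers more peaks from which the best is taken, so these ranks are not compared at equal length. The best single rank belonged to the peptide processing gene egl-3, and in replicate 3 the peptide processing genes had the better median, 1241 against 2766.5 for the axon genes. In these 6 windows lay 31.9 pooled summits per 100 kb, against 13.6 over the windows of all genes. The density was 33.9 without unc-44, the gene with the most pooled peaks.

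unc-104 (WBGene00006831, II:6994987-7010625, plus strand) encodes the kinesin-3 motor that carries synaptic vesicle precursors down the axon. Its strongest pooled peak, of rank 211 and signal 36.7, had its summit 1938 bp upstream of the gene start, in the sequence shown above. In replicate 1 the strongest peak in the window had rank 68 (signal 22.1) and lay 42 bp from the pooled summit. In replicates 2 and 4 the strongest peaks, of rank 3617 and 319, lay in a coding exon and in an intron, and at the pooled place these replicates had peaks of rank 4040 and 5766. Replicate 3 had no peak at the pooled place. The upstream place was thus strong in 1 replicate and weaker or absent in the other replicates.

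unc-76 (WBGene00006808, V:15071760-15080152, plus strand) encodes a FEZ-family protein needed for axon bundling and outgrowth. Its strongest pooled peak had rank 618 and signal 30.1, with the summit 236 bp upstream of the gene start. Replicates 1 and 4 ranked this place 618 and 285, with summits 28 and 6 bp from the pooled one, and replicates 2 and 3 had no peak there. It was the only neuronal gene whose pooled peak stood among the 1000 strongest and was ranked so in 2 replicates. Replicate 2 held a peak of rank 632 elsewhere in the gene, in a coding exon 6651 bp from the start.

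unc-44 (WBGene00006780, IV:5975557-6004857, plus strand) encodes an ankyrin, which links membrane proteins to the cytoskeleton along the axon. It had 9 pooled peaks in a window of 31.3 kb. The strongest, of rank 898 and signal 28.3, lay 1052 bp upstream of the start. All 4 replicates had a peak at that place, of rank 10436, 5006, 2037 and 21760, none of them among the 1000 strongest of its list. The strongest peaks of the replicates lay elsewhere, 14438, 6863, 8627 and 10618 bp from the start, in coding exons in replicates 1, 3 and 4 and in an intron in replicate 2. Their ranks were 610, 2590, 892 and 372. This gene thus ranked high in 3 replicates, at a different place in each.

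tba-1 (WBGene00006528, I:9785781-9787624, minus strand) encodes an alpha-tubulin. Its pooled peak had rank 207 and signal 36.8, and the summit, 1114 bp upstream, lay only 13 bp from the start of cox-5B, a gene for a subunit of cytochrome c oxidase, so the peak may belong to either gene by position. All 4 replicates overlapped it, with ranks of 4536, 6697, 4448 and 3332. No replicate put the place among its 1000 strongest.

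unc-33, which encodes a CRMP-family protein that organises axonal microtubules, had a pooled peak of rank 1584 and signal 25.7 in a UTR exon 8686 bp from the start (WBGene00006769, IV:3516886-3526602, plus strand). At that place replicates 1, 2 and 4 had ranks of 21208, 14797 and 9429, and replicate 3 had none. Its highest replicate rank, 644 in replicate 3, lay 1256 bp upstream instead. tbb-1, a beta-tubulin gene, had a pooled peak of rank 9812 within its gene and in the promoter of rib-2. Replicate 1 ranked that place 827 and replicate 4 ranked it 6919, and replicate 2 had no peak in the window.

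All 5 peptide processing and dense-core vesicle genes had a pooled peak (44.8% of all genes), and 2 had one among the 1000 strongest (5%). The density in their windows was 33.8 pooled summits per 100 kb, from 12 peaks. egl-3 (WBGene00001172, V:10169177-10173753, minus strand) encodes the proprotein convertase that cuts neuropeptide precursors, and held the strongest pooled peak of the 30 genes, of rank 133 and signal 40.2, 1007 bp upstream of the start. Replicate 1 ranked the place 62 (signal 22.5), replicate 2 ranked it 3681 (signal 12.9), replicate 4 ranked it 16935 (signal 2.98) and replicate 3 had no peak in the window. The summits of replicates 1, 2 and 4 lay within 110 bp of the pooled one, so they shared a place but not a rank.

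egl-21 (WBGene00001189, IV:10478442-10481844, minus strand) encodes the carboxypeptidase E that trims the peptides egl-3 releases. Its pooled peak had rank 415 and signal 32.3, 171 bp upstream of the start. Replicate 4 ranked the place 216 (signal 11.0), replicate 2 ranked it 5396 and replicate 1 ranked it 26082, while replicate 3 had its only peak 791 bp upstream, with rank 6573. The high pooled rank was thus met in 1 replicate. ida-1, an IA-2 homologue of dense-core vesicles, had pooled rank 4147 in an intron and rank 940 in replicate 3, in a coding exon. unc-108, the RAB-2 GTPase that acts in dense-core vesicle maturation, had pooled rank 5171 at 121 bp upstream, and rank 404 in replicate 1 in a UTR exon. ric-19, the ICA69 homologue, had pooled rank 5338 in an intron that is also the promoter of C32E8.13.

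The 13 vesicle release and active zone genes were mixed. A pooled peak was present in 10 (44.8% of all genes) and a peak among the 1000 strongest in 3 (5%). The density was 13.6 pooled summits per 100 kb, equal to that of all genes, and 19.1 without the very long genes cla-1 and unc-13. snb-1 (WBGene00004897, V:6655562-6656501, minus strand) encodes synaptobrevin, the SNARE of the synaptic vesicle. Its pooled peak had rank 312 and signal 33.9, 132 bp upstream of the start. Replicate 2 ranked the place 91, replicate 1 ranked it 15385 (signal 7.63), replicate 3 ranked it 7236 (signal 2.75), and replicate 4 had its strongest peak, of rank 3439, in a UTR exon 502 bp from the start. Replicates 1 to 3 thus placed their summits within 300 bp of the pooled one, and 1 of them ranked the place high.

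cla-1 (WBGene00018468, IV:7588931-7628238, plus strand) encodes Clarinet, a very large active zone protein. Its pooled peak had rank 849 and signal 28.6, in a coding exon 22705 bp from the start. Replicate 2 ranked the place 705 and replicate 1 ranked it 4080, and replicates 3 and 4 had none there. Replicate 4 held a peak of rank 871 in another coding exon, 33571 bp from the start. unc-10 (WBGene00006750, X:7272317-7280322, minus strand) encodes RIM, a scaffold of the active zone. Its pooled peak had rank 920 and signal 28.2, in an intron 7389 bp from the start and in the promoter of F46H5.11. Replicates 1 and 2 ranked this place 1463 and 2096, but their strongest peaks, of rank 171 and 512, lay 654 and 1200 bp upstream of unc-10. Replicate 3 had no peak in this window, and replicate 4 had 1, of rank 6962.

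The remaining genes of vesicle release ranked lower in the pool. unc-31, the CAPS homologue for dense-core vesicle release, had rank 1812, and unc-64, the syntaxin gene, had rank 2700. unc-13, which primes vesicles, had rank 4347, the synaptogyrin gene sng-1 had 5237 and the vesicle GTPase gene rab-3 had 5277. The liprin-alpha gene syd-2 and the syntaxin partner gene unc-18 had ranks 9004 and 9847. The rab-3 summit, 1757 bp upstream, lay within another protein-coding gene, C18A3.7. The unc-18 summit, 1553 bp upstream, lay in the promoter of stn-2. Within single replicates, unc-31 ranked 767 in replicate 1, sng-1 ranked 939 in replicate 2, and unc-64, unc-18 and unc-13 ranked 835, 855 and 959 in replicate 4. None of these 5 genes was among the 1000 strongest in more than 1 replicate. ric-4, the SNAP-25 gene, snn-1, the synapsin gene, and snt-1, the synaptotagmin gene, had no pooled peak. They nonetheless had a peak in 3, 4 and 4 of the replicate lists. ric-4 reached rank 2477 of 30000 in replicate 1, and snt-1 reached rank 5203 of 30000 in replicate 2. snn-1 reached rank 3587 of 30000 in replicate 2 and 2375 of 13225 in replicate 3.

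All 4 endocytosis genes had a pooled peak (44.8% of all genes), and none was among the 1000 strongest in the pool or in any replicate. Over all genes that share was 5% in the pool and 4.9% to 5.23% in the replicates. With 4 genes, a count of 0 is near that background and does not set this role apart. unc-11 (WBGene00006751, I:3798396-3805739, minus strand) encodes the clathrin adaptor AP180. Its pooled peak was the best of the 4, of rank 2585 and signal 23.6, 772 bp upstream of the start. All 4 replicates overlapped it, with ranks of 1984, 8885, 8678 and 11164. The Eps15 gene ehs-1, the synaptojanin gene unc-26 and the endophilin gene unc-57 had ranks 4040, 7158 and 10541, in coding exons. maco-1, which encodes macoilin, had a pooled peak of rank 5047 and signal 20.6 in an intron (WBGene00017066, I:6598982-6607520, minus strand). rgef-1, a Ras guanine nucleotide exchange factor gene often used as a pan-neuronal marker, had rank 7316 at 475 bp upstream. Neither maco-1 nor rgef-1 was among the 1000 strongest in any replicate.

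**Figure D3:**
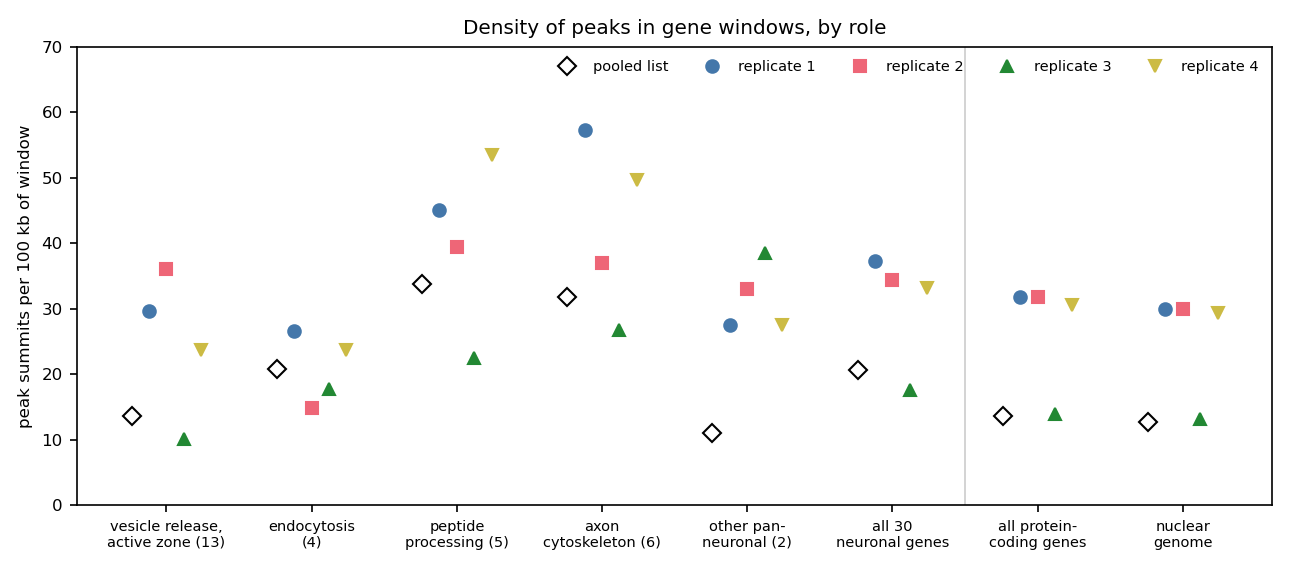
Peak summits per 100 kb of gene window, by role (number of genes in brackets), for the 30 neuronal genes together, for all protein-coding genes and for the nuclear genome; open diamonds are the pooled list and filled symbols are replicates 1 to 4. Over the 30 genes the density was 20.6 in the pool and 37.3, 34.3, 17.6 and 33.2 in replicates 1 to 4, against 13.6, 31.8, 31.7, 14.0 and 30.6 over all genes.

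Over the 30 windows together, 334.83 kb held 69 pooled summits, or 20.6 per 100 kb, against 13.6 over the windows of all genes and 12.7 over the nuclear genome. The gap was narrower in the replicates, where the 30 genes had 37.3, 34.3, 17.6 and 33.2 summits per 100 kb and all genes had 31.8, 31.7, 14.0 and 30.6. For the 1000 strongest peaks the 30 genes had 2.69 summits per 100 kb in the pool, against 1.05 over all genes. In replicates 1 to 4 the neuronal genes had 2.69, 1.49, 0.896 and 2.69, against 1.05, 1.01, 1.10 and 1.04 over all genes. The neuronal genes stood above all genes in 3 replicates and below them in replicate 3.

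The replicates seldom agreed on where a neuronal gene was bound most. The strongest pooled peak of the 27 genes was overlapped by a peak of replicates 1 to 4 in 24, 18, 8 and 15 genes, or 88.9%, 66.7%, 29.6% and 55.6%. Over all genes with a pooled peak the shares were 71.2%, 74.4%, 24.9% and 45.8%. Only tba-1, unc-44 and unc-11 were overlapped in all 4 replicates, which is 11.1% of the 27, against 6.53% of the 8954 genes with a pooled peak. Over all genes, with or without a pooled peak, the shares were 10% of the 30 neuronal genes and 2.93% of protein-coding genes. For each pair of replicates, the strongest summits of a neuronal gene lay within 300 bp of each other in 13.4% of the genes with a peak in both (mean over 6 pairs, SD 7.94, from 4.17% to 27.6%). The same mean over all genes was 18.9% (SD 2.30). The pairs share replicates and the neuronal genes are long, so this is a description only.

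**Figure D4:**
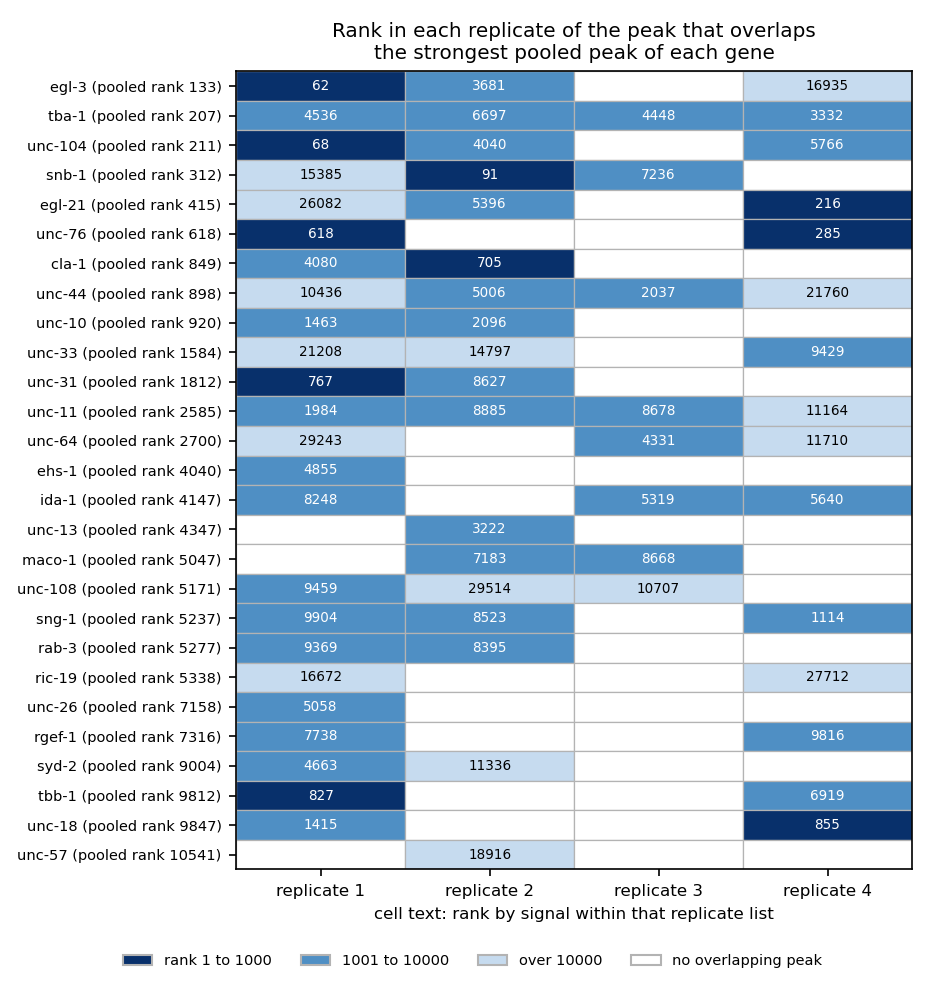
Rank by signal in each replicate list of the peak that overlaps the strongest pooled peak of each of 27 neuronal genes, ordered by pooled rank; dark cells are ranks up to 1000 and white cells have no overlapping peak. Of the 9 genes with a pooled peak among the 1000 strongest, 3 had no replicate, 5 had 1 and 1 (unc-76) had 2 that ranked the same place among its own 1000 strongest.

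Of the 9 neuronal genes with a pooled peak among the 1000 strongest, 3 had no replicate that ranked the same place so high, 5 had 1 and 1 had 2. As shares these were 33.3%, 55.6% and 11.1%, against 33.2%, 42.6% and 17.9% of the 999 such genes among all protein-coding genes. In all genes a further 5.01% and 1.2% had such support in 3 and in 4 replicates. The neuronal genes at the top of the pooled list thus carried no more replicate support than other genes there. Counting a peak anywhere in the window, 13 of the 30 genes were among the 1000 strongest in no replicate and 12 in 1. A further 3 were so in 2 (unc-104, cla-1 and unc-10) and 2 in 3 (unc-76 and unc-44). Over all protein-coding genes the shares were 84% in no replicate, 12.8% in 1, 2.46% in 2, 0.611% in 3 and 0.13% in 4. These shares were not weighted by gene length, and the neuronal genes are long.

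The places of the strongest peaks differed between the pool and the replicates. Of the 27 genes with a pooled peak, 15 (55.6%) had the summit upstream of the gene, 6 (22.2%) in an intron, 5 (18.5%) in a coding exon and 1 (3.7%) in a UTR exon. Over all genes with a pooled peak the shares were 44.5%, 23%, 28.3% and 4.14%. The summit lay between 1000 bp upstream and 200 bp downstream of the gene start in 9 of the neuronal genes (33.3%), against 28.8% of all genes. In replicates 1 to 4 the strongest peak was upstream in 43.3%, 34.5%, 48% and 41.4% of the neuronal genes, against 43.9%, 43.2%, 48.9% and 48.9% of all genes. The shares near the gene start were 26.7%, 17.2%, 28% and 27.6% of the neuronal genes, against 26.7%, 27.4%, 32.7% and 32% of all genes. The higher upstream share was thus seen in the pooled list and in none of the 4 replicate lists. Among all 69 pooled summits in the 30 windows, 25 were upstream, 21 in coding exons, 20 in introns and 3 in UTR exons, and 6 lay in the promoter of another gene only.

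**Figure D5:**
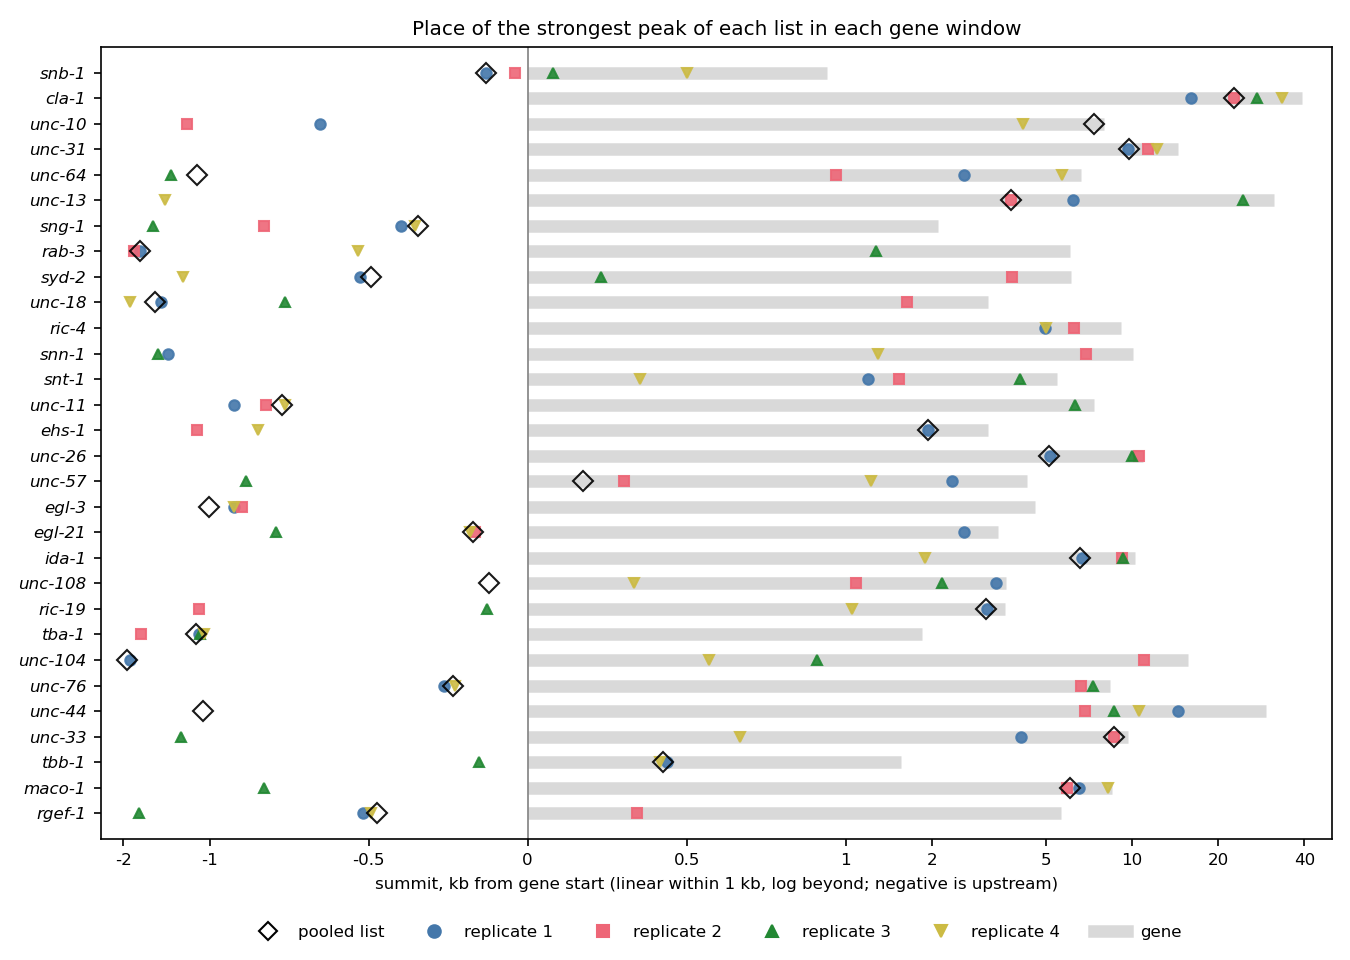
Summit of the strongest peak in the window of each of the 30 neuronal genes, in kb from the gene start (linear within 1 kb, logarithmic beyond, negative is upstream); open diamonds are the pooled list, filled symbols replicates 1 to 4 and grey bars the gene. The pooled summit is upstream in 15 of 27 genes, and in most genes the symbols of the 4 replicates are scattered along the window.

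The sequences searched were TCAGGTTTC (at most 1 mismatch), the hexamer TGATAC, the palindrome ATCGAT, the hexamer CGTCTC and the hexamer ACGCAG, on both strands within 50 bp of the summit. TCAGGTTTC and the hexamer TGATAC, which resemble sites of SIX-family proteins, were each found at 1 of the 27 strongest pooled summits (rab-3 and ehs-1), against 2.72% and 3.32% of the 12773 nuclear pooled peaks. ATCGAT was found at 3 (egl-3, unc-104 and cla-1), against 3.3%. CGTCTC was found at 4 (egl-21, unc-76, cla-1 and unc-108), against 5.4% of the nuclear pooled peaks and 11.5% of those among the 1000 strongest. ACGCAG was found at 3 (egl-21, unc-76 and cla-1, all among the 1000 strongest), against 4.24% and 9.32%. In those 3 genes both hexamers overlapped to form CTGCGTCTC, a joined form looked for after the summits had been seen, which 1.42% of the nuclear pooled peaks and 4.61% of those among the 1000 strongest held. Both hexamers were chosen in earlier work as frequent at strong peaks of these data, so their presence at strong peaks here is no separate evidence. The GC content within 50 bp of the summit had a median of 44.6% at the neuronal genes (24.8% to 63.4%), against 40.6% at all nuclear pooled peaks and 49.5% at the 100 strongest of them.

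A list of other genes from the same pathways gives the setting. Of 45 named genes 43 were matched; 31 had a pooled peak, 4 had one among the 1000 strongest and 0 had a peak of the thresholded list. The 4 were the spectrin gene unc-70 (rank 194), the stonin gene unc-41 (rank 238), the kinesin light chain gene klc-2 (rank 378) and the active zone gene syd-1 (rank 983), and all 4 summits lay in introns. The density over the 43 windows was 15.04 pooled summits per 100 kb, against 20.6 over the 30 neuronal genes and 13.6 over all genes. Of 30 body wall muscle genes 22 had a pooled peak and 3 had one among the 1000 strongest. Of 78 cytosolic ribosomal protein genes 53 had a pooled peak and 16 had one among the 1000 strongest. A peak of the thresholded list was found in 6 of the 78. Among all genes 0.436% had a peak of that list, so the count of 0 in the 30 neuronal genes is near that share. The density was 19.7 pooled summits per 100 kb over the muscle genes and 33.04 over the ribosomal protein genes, so that of the neuronal genes was close to the first and below the second. A peak in all 4 replicate lists was found in 76.7% of the neuronal genes, against 67.4% of the other pathway genes, 70% of the muscle genes and 43.6% of the ribosomal protein genes. Over all genes the share was 27%. Median gene lengths in these 4 lists were 6382, 6079, 5698 and 753.5 bp, so the shares and counts are not compared at equal length. Among all genes of up to 1215 bp the share with a peak in all 4 replicate lists was 10.7%.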

How the data were processed

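Peak lists on ce11 were analysed for 4 ChIP-seq replicates of whole L3 larvae, with a pooled and a thresholded list. Per the deposited README files the replicate and pooled lists hold peaks and background used as input for the IDR. The aligner and peak caller were not given in the sources used here. Peak signal is the authors' deposited value, used only to rank or describe peaks within a list. The column deposited for q was taken as −log10 q, the usual scale of the format. Read depth is unknown, and 0 peaks were identical between replicates. Nothing in the files says more about the replicates than that they are biological.

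Genes came from Ensembl release 115. A summit from 2000 bp upstream of the gene start to the gene end was given to the gene, and to every gene whose window held it. Promoters ran from 1000 bp upstream to 200 bp downstream of a start. A replicate was ranked at the place of a pooled peak by its strongest peak that overlapped the pooled peak by at least 1 bp. Separately, the strongest summits of 2 lists were called near each other when within 300 bp. Lookups were tested on simulated data (Python 3.11.15, numpy 2.4.6, scipy 1.17.1). All 30 genes are named; those with the 10 best pooled ranks, and the best of each role, are given in full. The members, roles and gene lists were chosen with earlier results of these data known. Alternatives changed the window, the list, the number of strongest peaks, the overlap and the replicates used. The ce10 lists were not used here.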

Additional observations from a re-analysis of the deposited data

How the results depend on the processing

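The counts depended on the window and on how deep into the lists they reached, and the shares of all protein-coding genes fell with them. A promoter window of 1000 bp upstream to 200 bp downstream has the same width for every gene, long or short. In it, 12 of the 30 neuronal genes had a pooled peak (all genes 16.4%) and 3 had one among the 1000 strongest (1.8%). A peak in all 4 replicate lists was found in 2 (2.4%), and 1 was overlapped in all 4 replicates (1.42%). With 500 bp upstream to the gene end, 5 were among the 1000 strongest (3.41%) and 0 were overlapped in all 4 replicates (2.07%). With pooled peaks at a −log10 q of at least 1.3, or with the thresholded list, 0 genes had a peak (0.245% and 0.436%). Among the 500 strongest pooled peaks were 5 genes (2.43%). A peak in all 4 lists was found in 11 genes with the 10000 strongest peaks of each replicate (7.44%) and in 0 with the 1000 strongest (0.13%), where 0 were overlapped in all 4 (0.0601%). Leaving out a replicate gave 23 to 28 genes with a peak in all remaining lists (all genes 31% to 47%, both highest without replicate 3). It gave 3 to 8 genes overlapped in all remaining lists: 5 without replicate 2 (4.47%), 5 without replicate 4 (5.23%) and 8 without replicate 3, the shortest list (9.53%). The other alternatives moved no count by over 1.5 times. The cause of these shifts was not tested, except that stricter lists hold fewer peaks. With no read counts, precision at any one peak is unknown.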
